A study of Mus musculus with 16 samples.

Results

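The 44 genes described here encode the folding machinery of the endoplasmic reticulum (ER), the compartment in which secreted and membrane proteins are made, together with sensors of the unfolded protein response and factors of ER-associated degradation. The rule that defines them is a list of gene symbols and uses no measured value, but the list was drawn up with earlier results of these data known. All 44 were found among the 10920 genes in the files, and all 44 were among the 9891 genes tested, which reached at least 1 FPKM (fragments scaled to transcript length and library size) in at least 4 libraries. RNA had been sequenced from macrophages grown out of the bone marrow of C57BL/6 mice of 8 weeks. The mice were wild type or carried Sirt3 K223R, a lysine-to-arginine change in Sirt3, a deacetylase of mitochondria. Marrow cells of both genotypes received the growth factor M-CSF at 20 ng/ml over 7 days, which makes them macrophages. They were then left untreated or received IL-4, a cytokine of alternative (M2) activation, at 20 ng/ml over 24 hours. This gave 4 groups of 4 libraries: untreated wild type, wild type with IL-4, untreated K223R and K223R with IL-4. The number of altered Sirt3 copies and the origin of the replicates from separate animals are not stated in the labels. The p-values therefore speak only to the spread among these libraries, part of which may be technical.

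Proteins enter the ER through the translocon, lose their signal peptide, receive N-linked sugars, and are folded by chaperones and by disulfide isomerases, while products that do not fold are sent back to the cytosol for degradation. When unfolded proteins build up, sensors in the ER membrane, among them IRE1 (gene Ern1) and ATF6, signal to the nucleus. IRE1 splices the Xbp1 mRNA so that it encodes an active transcription factor, ATF6 is cut to release another, and both raise genes of chaperones, folding enzymes and degradation factors. Values per gene do not separate spliced from unspliced Xbp1 mRNA, nor whole from cut ATF6 protein, so the data bear on transcript levels of these genes only.

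The DNA elements through which ATF6 and XBP1 are known to act were searched in the RefSeq promoters of the members (GRCm38.p6, 250 bases before to 50 after the start of transcription), on both strands. The ER stress element was taken as CCAAT, then 9 bases of any kind, then CCACG, and the second ER stress element as ATTGG, then 1 base, then CCACG. Of the 44 members, 36 had a promoter in the RefSeq table. Hyou1, Manf, Atf6, Sec61a1, Ssr2, Spcs3, Ostc and Derl1 had no entry. The ER stress element was found in 8 of the 36 members (Hspa5, Hsp90b1, Calr, Canx, Pdia6, Dnajc3, Creld2 and Syvn1) and in 39 of all 32851 promoters (0.119%). The second element was found in Herpud1 and Dnajb11 and in 12 of all promoters (0.0365%). The UPR element TGACGTGG was found in 0 of the 36 members and in 222 of all promoters (0.676%); its end is the CCACG half-site read on the other strand. The sequences of 6 members that return in the results follow, in 5′ to 3′ orientation of the gene, with the half-sites in capitals. The Hsp90b1 promoter holds the ER stress element at a pair of places, and there, in Calr and in Creld2 an element lies on the opposite strand, so that its half-sites read CGTGG and ATTGG. Positions are counted from the annotated start, with bases before it negative.
Hspa5 promoter (chr2:34771840-34772139, plus strand; element at positions -65 to -47): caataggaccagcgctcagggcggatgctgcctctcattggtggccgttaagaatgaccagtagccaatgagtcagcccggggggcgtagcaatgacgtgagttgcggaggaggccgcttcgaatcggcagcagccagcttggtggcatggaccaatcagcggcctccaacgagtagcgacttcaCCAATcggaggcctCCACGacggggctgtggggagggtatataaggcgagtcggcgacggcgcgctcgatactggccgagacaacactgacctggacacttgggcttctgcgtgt
Hsp90b1 promoter (chr10:86705395-86705694, minus strand; elements at positions -212 to -194 and -107 to -89): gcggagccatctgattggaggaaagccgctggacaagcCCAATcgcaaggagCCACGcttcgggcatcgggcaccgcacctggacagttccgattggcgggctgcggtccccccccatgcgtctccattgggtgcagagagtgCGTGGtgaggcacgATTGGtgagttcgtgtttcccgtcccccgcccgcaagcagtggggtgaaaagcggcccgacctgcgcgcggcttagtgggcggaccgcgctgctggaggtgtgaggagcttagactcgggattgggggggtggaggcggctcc
Herpud1 promoter (chr8:94386179-94386478, plus strand; second element at positions -52 to -42): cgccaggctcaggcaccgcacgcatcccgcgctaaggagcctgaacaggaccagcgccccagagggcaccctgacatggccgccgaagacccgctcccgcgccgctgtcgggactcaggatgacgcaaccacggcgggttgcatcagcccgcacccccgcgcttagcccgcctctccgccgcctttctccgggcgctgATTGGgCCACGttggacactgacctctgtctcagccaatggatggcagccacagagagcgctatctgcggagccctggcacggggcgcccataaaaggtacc
Calr element (promoter chr8:84846882-84847181, minus strand; positions -162 to -144): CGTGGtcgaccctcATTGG
Pdia6 element (promoter chr12:17266339-17266638, plus strand; positions -98 to -80): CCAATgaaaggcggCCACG
Creld2 element (promoter chr15:88819396-88819695, plus strand; positions -126 to -108): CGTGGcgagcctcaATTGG
A match describes letters in this window and is not a shown binding site, and the RefSeq start can differ from the start in the files' annotation.

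The FPKM of all genes summed to between 288143 and 306581 per library, and sequencing depth is unknown. The 7 macrophage markers examined (Adgre1, Cd68, Csf1r, Fcgr1, Mertk, Lyz2 and Cd14) were present, with a summed level of 10859 to 16172 FPKM per library. Arg1, Chil3, Retnla and Mrc1, known IL-4 targets, summed to between 47.4 and 86.1 FPKM in untreated libraries and to between 3425 and 13425 FPKM with IL-4. K223R IL-4 replicate 2 stood apart: its correlation with libraries of its group had a median of 0.980, where the other 15 libraries had 0.985 to 0.990, and it had the lowest value of its group for 25 of the 44 members and the highest for 10. The counts of called members without it are given with each comparison.

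IL-4 raised a broad set of ER folding genes in both genotypes, led by the disulfide isomerase Pdia4, and more of the 44 passed the test in K223R. In wild-type cells 23 of the 44 members rose and 1 fell at a limma adjusted p under 0.05, against 10.7% of all genes tested higher and 15.3% lower. In K223R cells 30 members rose and 3 fell, against 13.5% of all genes higher and 29.1% lower. The median log2 difference of the members was 0.23 in wild type and 0.37 in K223R, where over all genes it was -0.042 and -0.092. Without K223R IL-4 replicate 2 the counts were 28 higher and 1 lower in wild type, which that library enters only through the shared estimate of spread, and 33 higher and 2 lower in K223R. All 23 members that rose in wild type were among the 30 that rose in K223R, and the 1 that fell, Atf6, fell in both. The 9 members called in K223R alone were Hyou1, Uggt1, Sec61a1, Sec61b, Spcs2, Stt3a and Edem1, which rose, and Sec62 and Dad1, which fell. In the test of the difference between the genotypes' responses none of these 9 was called, with adjusted p between 0.0895 and 0.888; Edem1 was called there with median-ratio scaling (0.022) and without wild-type IL-4 replicate 1 (0.0479). With median-ratio scaling 5 of the 9 were also called higher in wild type, namely Stt3a (adjusted p = 0.00651), Hyou1 (0.0264), Sec61a1 (0.0311), Sec61b (0.0346) and Spcs2 (0.037). With only the groups compared, Hyou1 (adjusted p = 0.0267) and Spcs2 (0.0176) were called higher in wild type as well. Quantile normalization gave the same for Hyou1 (0.028) and Stt3a (0.028). The remaining 11 members were called in neither genotype.

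The members' share of the summed FPKM showed the same order of groups. Untreated wild-type cells had 0.707% ± 0.0133 and those with IL-4 had 0.950% ± 0.0324 (mean ± SD, n = 4 libraries). In K223R cells it was 0.737% ± 0.0177 untreated and 1.10% ± 0.0211 with IL-4. The lowest K223R IL-4 library, at 1.07%, lay above the highest wild-type IL-4 library, at 0.991%, so the IL-4 groups did not overlap. The untreated groups did not overlap either, the lowest K223R library being at 0.7167% and the highest wild-type library at 0.7161%. A summed share weighs abundant genes most. Between the untreated groups the members' mean sum went from 2115 FPKM in wild type to 2164 in K223R. Hspa5 alone went from a mean of 94.6 to 131 FPKM, and was not called (limma adjusted p = 0.869). The median log2 difference of the members between these groups was -0.0045. K223R with IL-4 held the highest group mean for 33 members, wild type with IL-4 for 8, untreated wild type for 2 and untreated K223R for 1. In bulk RNA, more cells of a kind and more RNA per cell cannot be told apart. Summed levels of markers of other cells also differed between groups. The 6 neutrophil markers in the files summed to 78.8 to 165 FPKM in untreated wild type and 53.5 to 105 with IL-4, and to 105 to 145 in untreated K223R and 40.4 to 63.9 with IL-4, and none was at 0 throughout. Of plasma cells, which are rich in ER, Jchain, Sdc1 and Prdm1 summed to 42.2 to 65.8 FPKM in wild-type and 43.1 to 56.0 in K223R libraries, of which Sdc1 made up the greater part. Jchain, which encodes the joining chain of secreted antibodies, had means of 0.954 ± 0.365 FPKM in untreated wild type and 0.980 ± 0.374 with IL-4 (adjusted p = 0.948). In K223R it fell by 0.89 on the log2 scale (adjusted p = 0.000393), from 1.98 ± 0.513 to 0.589 ± 0.0875 FPKM. The single B cell marker in the files, Cd79b, stayed at or under 2.07 FPKM, and the 3 stromal markers in the files (Col1a1, Sparc and Acta2) summed to at most 6.35. The 4 dendritic cell markers looked up were not among the genes in the files. The 13 mitochondrially encoded genes took 7.78% ± 0.544 of the summed FPKM in untreated wild type, 7.78% ± 0.455 in wild type with IL-4, 6.62% ± 0.309 in untreated K223R and 5.06% ± 1.24 in K223R with IL-4. The part of these markers and of the mitochondrial share in the results was not tested.

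**Figure D1:**
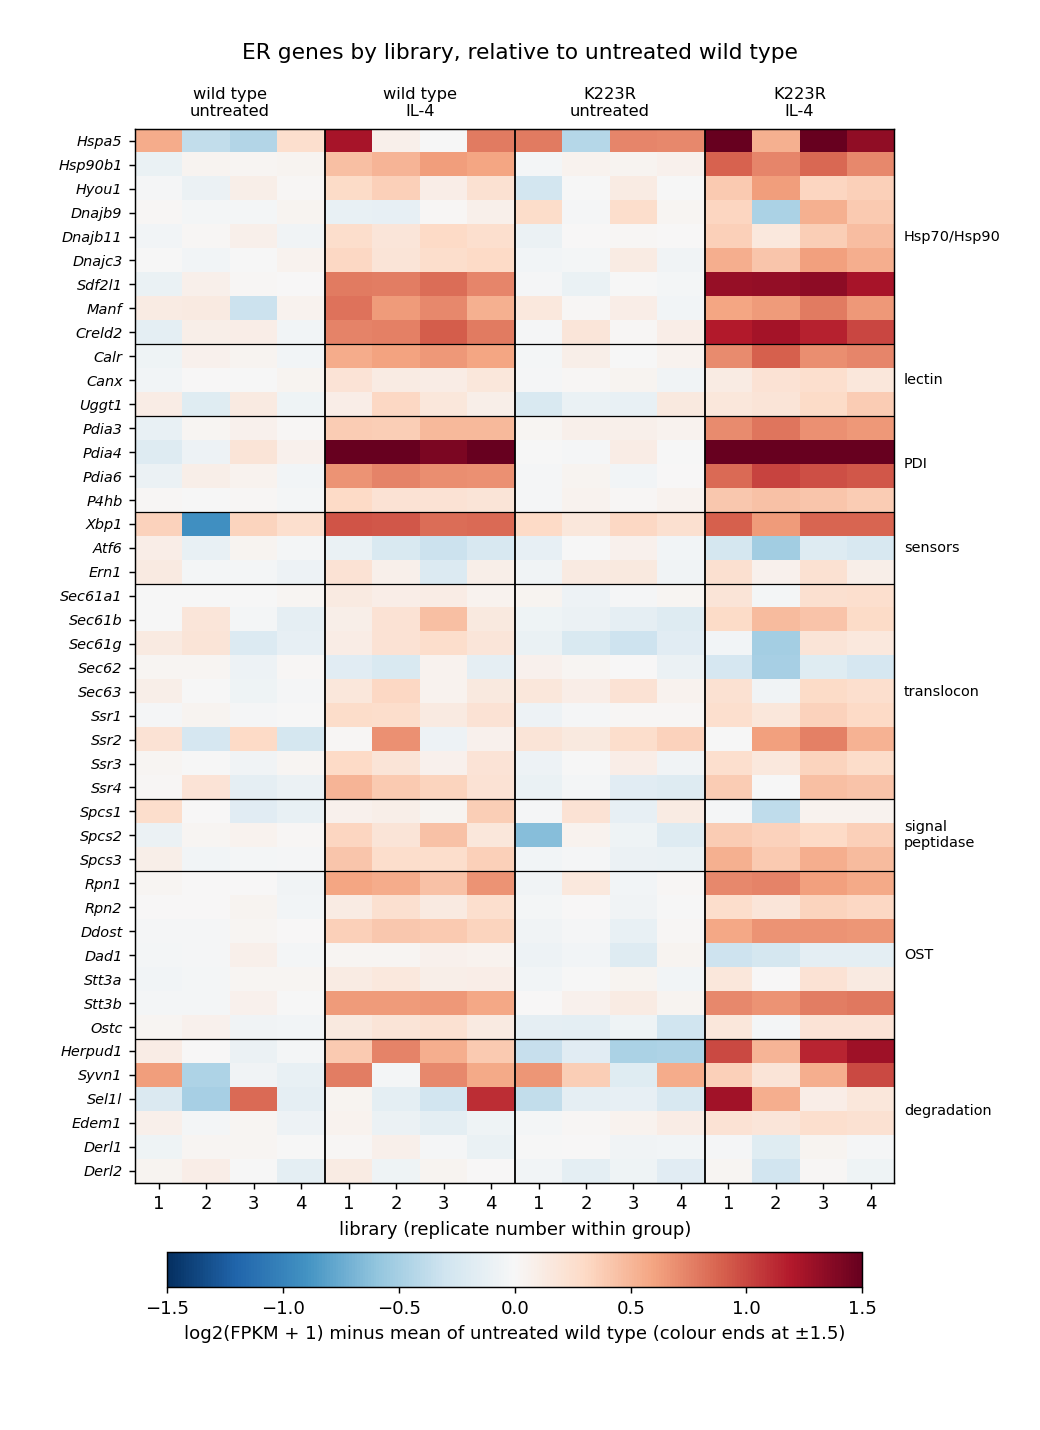
Heat map of the 44 ER genes (rows, grouped by role; PDI, protein disulfide isomerases; OST, oligosaccharyltransferase) in the 16 libraries (columns, 4 per group, numbered by replicate). Colour is log2(FPKM + 1) minus the mean of the 4 untreated wild-type libraries, with colours ending at 1.5 in either direction. Both IL-4 groups are red for most chaperones, disulfide isomerases and oligosaccharyltransferase subunits, and more so in K223R.

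The sensors and transcription factors split between a rise and a fall with IL-4. Xbp1, the transcription factor spliced by IRE1, measured 34.8, 13.85, 34.4 and 32.5 FPKM in the 4 untreated wild-type libraries in order of replicate and 53.3, 52.7, 49.2 and 49.9 with IL-4. In K223R it measured 33.6, 30.8, 33.9 and 32.3 untreated and 51.7, 42.8, 50.6 and 50.8 with IL-4. The IL-4 libraries lay above the untreated ones in both genotypes, and untreated wild-type replicate 2 lay far below the other 3 of its group. The log2 difference was 0.89 ± 0.20 (SE; adjusted p = 0.00404) in wild type and 0.57 ± 0.20 (adjusted p = 0.0353) in K223R. Without untreated wild-type replicate 2 the wild-type difference was 0.58. The K223R call ended without untreated K223R replicates 1, 2, 3 or 4 or K223R IL-4 replicates 1, 3 or 4, with adjusted p between 0.0568 and 0.0741.

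Atf6, the ER membrane sensor whose cut form enters the nucleus, fell. It measured 12.98, 11.1, 12.4 and 11.8 FPKM in untreated and 11.2, 10.1, 9.41 and 10.1 in IL-4 libraries of wild type, where 1 IL-4 library lay above the lowest untreated one. The K223R values were 10.97, 12.03, 12.6 and 11.7 untreated and 9.84, 8.13, 10.4 and 10.1 with IL-4, with no overlap. It fell by 0.22 on the log2 scale in wild type (SE 0.074, adjusted p = 0.0373) and by 0.28 in K223R (SE 0.074, adjusted p = 0.00719). The wild-type call ended without untreated wild-type replicates 1, 3 or 4 or wild-type IL-4 replicates 2, 3 or 4 (adjusted p between 0.0613 and 0.108) and with median-ratio scaling (0.0553). Ern1, which encodes IRE1, was not called in any comparison, but was called higher with IL-4 in K223R with median-ratio scaling (0.21, adjusted p = 0.0458). Its level was 7.85, 6.88, 6.92 and 6.69 FPKM in untreated wild type, 8.38, 7.54, 6.003 and 7.58 with IL-4, 6.79, 7.88, 7.93 and 6.78 in untreated K223R and 8.52, 7.43, 8.49 and 7.55 with IL-4, and the 4 groups overlapped.

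Hspa5 encodes BiP, the main Hsp70 chaperone of the ER, which also holds the sensors inactive, and its libraries spread more widely than those of most members. It measured 133, 69.7, 66.8 and 108 FPKM in untreated wild type and 215, 95.7, 90.5 and 156 with IL-4. In K223R cells the levels were 156, 67.2, 151 and 151 untreated and 257, 132, 270.2 and 230.1 with IL-4. All groups overlapped, and within wild type the replicates that were high untreated were also high with IL-4. In K223R each IL-4 library lay above the untreated one of the same number, and replicate 2 was the lowest of both groups. The log2 difference was 0.52 ± 0.34 in wild type (adjusted p = 0.297) and 0.78 ± 0.34 in K223R (adjusted p = 0.0792), so Hspa5 was called in neither. Replicate numbers were taken to pair the wild-type libraries, and within pairs the IL-4 library was 1.61, 1.37, 1.35 and 1.44 times its untreated partner. With the replicate number as a block the wild-type adjusted p was 0.000325. In K223R the call was made with the same block (adjusted p = 1.42e-05), without K223R IL-4 replicate 2 (0.0303) and with median-ratio scaling (0.0453).

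The other Hsp70 and Hsp90 chaperones and their partners rose in most cases. Of the 9 genes of this role, Hspa5 included, 6 rose in wild type and 7 in K223R, and the median log2 difference was 0.52 and 0.61. Sdf2l1, a partner of the ER J-domain protein Dnajb11, separated 3 levels. It measured 63.8, 72.2, 69.3 and 68.5 FPKM in untreated wild type and 118, 117, 123 and 114 with IL-4. Untreated K223R libraries had 67.4, 63.5, 67.99 and 67.01 and those with IL-4 had 170.0, 171, 174 and 163. Every IL-4 library lay above every untreated one, and every K223R IL-4 library above every wild-type IL-4 library. The log2 difference with IL-4 was 0.78 ± 0.044 in wild type (adjusted p = 5.43e-09) and 1.34 ± 0.044 in K223R (adjusted p = 1.06e-11).

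Creld2, an ER protein raised by ER stress, measured 20.1, 23.8, 24.1 and 21.7 FPKM in untreated wild type and 38.3, 38.5, 42.9 and 39.2 with IL-4. In K223R it measured 22.1, 25.5, 22.6 and 23.99 untreated and 52.4, 54.6, 51.1 and 45.9 with IL-4. The 4 K223R IL-4 libraries again lay above all others. Its log2 difference was 0.80 ± 0.069 in wild type (adjusted p = 4.45e-07) and 1.08 ± 0.069 in K223R (adjusted p = 8.96e-09). Hsp90b1 encodes Grp94, the Hsp90 of the ER, and its mean rose from 169 ± 8.01 to 247 ± 13.2 FPKM in wild type and from 172 ± 5.23 to 295 ± 17.02 in K223R (SD, n = 4). Manf, a small ER protein that binds BiP and can be secreted, rose in both genotypes, from 19.9 ± 2.91 to 32.3 ± 2.76 FPKM in wild type and from 20.7 ± 1.31 to 31.98 ± 1.97 in K223R.

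Among the J-domain cochaperones, which pass substrates to BiP, Dnajc3 had group means of 23.2 ± 0.682, 28.04 ± 1.09, 23.2 ± 1.37 and 33.9 ± 1.97 FPKM in untreated wild type, wild type with IL-4, untreated K223R and K223R with IL-4, and rose in both genotypes. Dnajb11 had means of 34.1 ± 1.48, 40.7 ± 1.44, 33.8 ± 1.23 and 43.5 ± 3.84 FPKM in the same order and also rose in both. Dnajb9 was called in neither, with means of 18.4 ± 0.482, 17.999 ± 1.32, 20.4 ± 2.28 and 21.98 ± 6.18 FPKM. K223R IL-4 replicate 2 held the lowest Dnajb9 value, 13.01 FPKM, and without it the K223R comparison was called higher (adjusted p = 0.0113). Hyou1, a large Hsp70 relative that exchanges nucleotide on BiP, had means of 9.99 ± 0.5395, 11.99 ± 0.939, 9.71 ± 1.199 and 13.8 ± 1.49 FPKM and rose in K223R (0.47 ± 0.086, adjusted p = 0.000469). In wild type its adjusted p was 0.0528, and the gene was called there without wild-type IL-4 replicate 3, untreated K223R replicates 1 or 3 or K223R IL-4 replicate 2 (adjusted p between 0.0262 and 0.0448).

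The lectin chaperones bind sugar-tagged proteins as they fold. Calr, calreticulin, had the highest level of the 44 members, with 366 ± 15.6, 555 ± 15.1, 373 ± 13.1 and 620.2 ± 39.9 FPKM in untreated wild type, wild type with IL-4, untreated K223R and K223R with IL-4 (mean ± SD, n = 4). Its log2 difference with IL-4 was 0.60 ± 0.051 in wild type (adjusted p = 3.55e-07) and 0.73 ± 0.051 in K223R (adjusted p = 2.18e-08). Canx, calnexin, its membrane-bound relative, rose less, by 0.15 and 0.19 on the log2 scale, and quantile normalization ended both calls (adjusted p = 0.94 and 0.336). Uggt1, which re-tags misfolded glycoproteins for another round, had means of 8.84 ± 1.03, 10.02 ± 0.774, 8.37 ± 1.05 and 10.7 ± 0.802 FPKM and rose in K223R (0.33 ± 0.089, adjusted p = 0.00734), with an adjusted p of 0.196 in wild type. The annotation also holds a pseudogene of Calr, and how shared reads were divided is not given.

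All 4 protein disulfide isomerases, which form and reshuffle disulfide bonds, rose with IL-4 in each genotype. Pdia4 had the largest rise of the 44 members in both. It measured 30.1, 32.8, 39.6 and 36.3 FPKM in untreated wild type and 114, 108, 93.6 and 98.9 with IL-4. The K223R values were 34.5, 34.1, 37.4 and 34.3 untreated and 137, 160.4, 156 and 147 with IL-4. The IL-4 and untreated libraries did not overlap in either genotype, and the 4 K223R IL-4 libraries lay above all wild-type IL-4 libraries. The log2 difference was 1.55 ± 0.081 in wild type (adjusted p = 2.05e-09) and 2.06 ± 0.081 in K223R (adjusted p = 5.95e-11).

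Pdia6, which also acts on BiP-bound clients, measured 43.1, 48.7, 47.8 and 44.5 FPKM in untreated wild type and 73.8, 77.6, 75.3 and 74.6 with IL-4. In K223R cells the levels were 45.5, 47.2, 44.6 and 46.1 untreated and 83.7, 93.4, 90.4 and 88.3 with IL-4. Its IL-4 libraries lay above the untreated ones without overlap, and its log2 difference was 0.70 ± 0.047 (adjusted p = 3.05e-08) and 0.94 ± 0.047 (adjusted p = 5.93e-10). Pdia3, the isomerase that works with calreticulin and calnexin, had means of 188 ± 10.2, 254 ± 11.4, 196 ± 2.75 and 309 ± 14.04 FPKM in the 4 groups in the same order as before. P4hb, the classic protein disulfide isomerase, had means of 144 ± 2.29, 169.5 ± 5.44, 147 ± 3.29 and 192 ± 2.97 FPKM. Both rose in both genotypes, P4hb by 0.23 in wild type, a call that quantile normalization ended (adjusted p = 0.136), and by 0.39 in K223R.

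**Figure D2:**
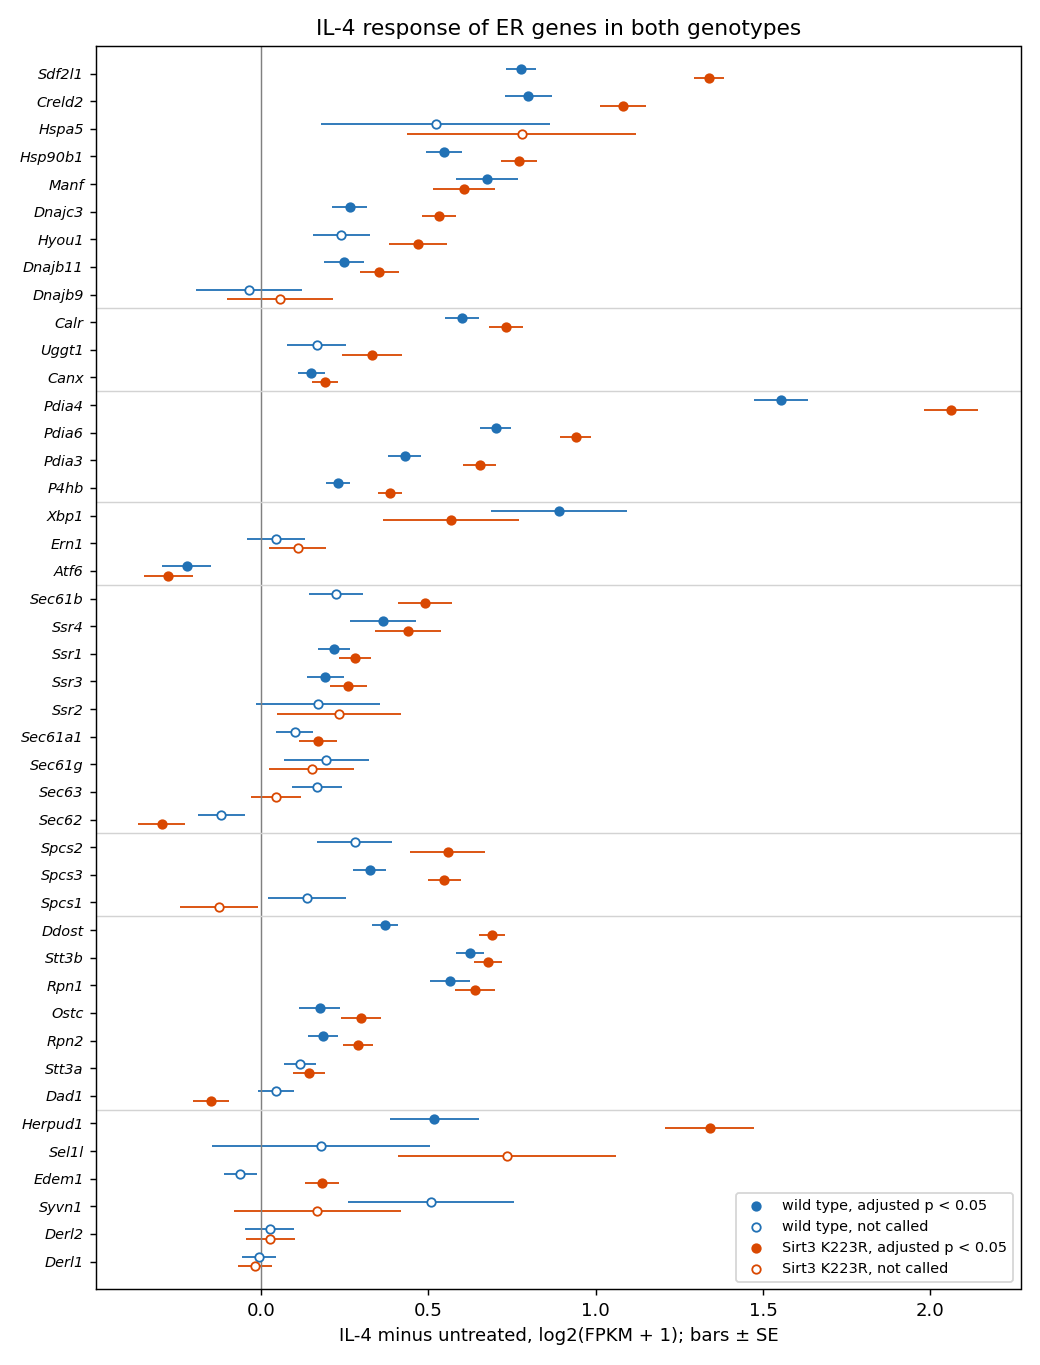
Log2 difference of each member between IL-4 and untreated libraries (x axis, log2(FPKM + 1), bars ± SE from limma) in wild type (blue) and Sirt3 K223R (orange), grouped by role. Filled points passed an adjusted p of 0.05 and open points did not; the bars of Hspa5, Sel1l, Syvn1, Xbp1 and Ssr2 are wide, and Pdia4 reaches 1.55 and 2.06.

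Of the 9 translocon genes, 3 rose in wild type, and 5 rose and 1 fell in K223R, with a median log2 difference of 0.19 and 0.23. The channel itself consists of Sec61a1, Sec61b and Sec61g. Sec61b had means of 39.98 ± 3.799, 46.9 ± 5.48, 36.6 ± 1.52 and 51.8 ± 3.58 FPKM in untreated wild type, wild type with IL-4, untreated K223R and K223R with IL-4. It rose in K223R (0.49 ± 0.080, adjusted p = 0.000169) and had an adjusted p of 0.053 in wild type, called without untreated wild-type replicate 2, wild-type IL-4 replicate 1 or K223R IL-4 replicate 2 (between 0.0171 and 0.0438). Sec61a1 rose in K223R by 0.17 (adjusted p = 0.0219), a call that ended without untreated K223R replicates 2 or 3 or K223R IL-4 replicates 3 or 4 (between 0.0501 and 0.0726) or when only the groups compared were fitted (0.0835); in wild type it was called without K223R IL-4 replicate 2 (0.0472). Sec61g, with means of 20.95 ± 2.896, 23.998 ± 1.09, 17.9995 ± 1.14 and 20.5 ± 4.401 FPKM, was called in neither genotype, but was called in K223R without its IL-4 replicate 2 (adjusted p = 0.0151).

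The TRAP complex, which helps nascent chains into the channel, consists of Ssr1 to Ssr4, of which 3 rose in both genotypes. Ssr1 had means of 14.4 ± 0.329, 16.98 ± 0.765, 14.3 ± 0.484 and 17.6 ± 0.984 FPKM and Ssr4 of 19.4 ± 2.21, 25.2 ± 2.14, 17.7 ± 0.942 and 24.5 ± 3.497 FPKM, and both rose in both genotypes. Ssr3 had means of 52.5 ± 1.46, 60.3 ± 4.07, 52.3 ± 2.88 and 62.9 ± 3.25 FPKM and rose in both, though its wild-type call (adjusted p = 0.0175) ended without untreated wild-type replicate 3 or wild-type IL-4 replicate 1 (between 0.0532 and 0.0573). Ssr2 was called in neither, and its libraries ran from 16.4 to 24.7 FPKM in untreated wild type and from 18.8 to 32.7 with IL-4. In K223R they ran from 22.1 to 25.5 untreated and from 19.8 to 34.2 with IL-4.

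Sec62 and Sec63 serve the channel when proteins enter after translation. Sec62 measured 52.4, 52.3, 48.8 and 52.2 FPKM in untreated wild type and 45.6, 43.9, 53.5 and 46.7 with IL-4, with overlap. Untreated K223R libraries had 53.7, 52.4, 51.7 and 48.1 and those with IL-4 had 42.9, 36.2, 45.2 and 43.05, without overlap. It fell by 0.30 on the log2 scale in K223R (SE 0.070, adjusted p = 0.00324), and its adjusted p in wild type was 0.245. Sec63 had means of 8.91 ± 0.415, 10.2 ± 0.842, 9.87 ± 0.533 and 10.3 ± 1.16 FPKM and was called in neither genotype; in wild type it was called without K223R IL-4 replicate 2 (adjusted p = 0.0352) and with median-ratio scaling or quantile normalization (0.0273 and 0.0425).

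Of the 3 signal peptidase subunits, 1 rose in wild type and 2 rose in K223R. Spcs3, needed for the enzyme's activity, had means of 32.8 ± 1.48, 41.4 ± 2.21, 31.4 ± 0.828 and 46.4 ± 2.17 FPKM in the 4 groups in the same order and rose by 0.33 ± 0.049 in wild type (adjusted p = 0.000139) and by 0.55 ± 0.049 in K223R (adjusted p = 3.76e-07). Spcs2 had means of 20.2 ± 0.904, 24.8 ± 2.32, 17.5 ± 3.61 and 25.9 ± 0.596 FPKM and rose in K223R (0.56 ± 0.11, adjusted p = 0.000901). In wild type its adjusted p was 0.079, or 0.00602 without untreated K223R replicate 1, its lowest library at 12.5 FPKM. Spcs1 was called in neither genotype, with means of 40.1 ± 5.705, 44.2 ± 5.01, 41.5 ± 4.402 and 38.1 ± 5.27 FPKM.

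The oligosaccharyltransferase, which attaches N-linked sugars, rose through most of its subunits. Of the 7 genes, 5 rose in wild type, and 6 rose and 1 fell in K223R. Stt3b, the catalytic subunit that also acts after translation, had means of 36.03 ± 1.203, 56.1 ± 1.24, 37.6 ± 1.41 and 60.7 ± 2.23 FPKM in untreated wild type, wild type with IL-4, untreated K223R and K223R with IL-4. Its log2 difference was 0.63 ± 0.042 in wild type (adjusted p = 3.05e-08) and 0.68 ± 0.042 in K223R (adjusted p = 6.05e-09). Stt3a, the other catalytic subunit, which acts at the translocon, had means of 19.4 ± 0.534, 21.1 ± 0.536, 19.3 ± 0.555 and 21.4 ± 1.44 FPKM. It was called higher in K223R (0.14 ± 0.048, adjusted p = 0.0252), a call that ended without untreated K223R replicates 1 or 4 or K223R IL-4 replicates 1, 3 or 4 (between 0.0506 and 0.0821) or when only the groups compared were fitted (0.0819). In wild type it was called higher without K223R IL-4 replicate 2 (adjusted p = 0.0249) and with median-ratio scaling or quantile normalization (0.00651 and 0.028).

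Ddost, a non-catalytic subunit, measured 63.2, 63.3, 65.7 and 64.3 FPKM in untreated wild type and 82.3, 84.95, 84.5 and 80.8 with IL-4. In K223R it measured 61.6, 63.2, 59.3 and 64.9 untreated and 96.6, 103, 102 and 102 with IL-4. The untreated groups overlapped, and every K223R IL-4 library lay above every wild-type IL-4 library. Rpn1, which presents substrates to the enzyme, had means of 43.5 ± 1.08, 64.9 ± 4.34, 44.2 ± 3.05 and 69.4 ± 4.25 FPKM, and Rpn2 of 51.4 ± 1.36, 58.7 ± 2.71, 50.7 ± 1.01 and 62.3 ± 3.005 FPKM, and both rose in both genotypes. Ostc, a subunit of the Stt3a form, rose in wild type by 0.18 ± 0.061 (adjusted p = 0.0447) and in K223R by 0.30 ± 0.061 (adjusted p = 0.00105). Its wild-type call ended with the replicate block (adjusted p = 0.0679), in limma without the trend (0.0516) and without untreated wild-type replicates 1, 3 or 4, wild-type IL-4 replicates 1, 2, 3 or 4, untreated K223R replicates 1 or 2 or K223R IL-4 replicates 1 or 3 (between 0.0501 and 0.114).

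Dad1, a small subunit of the same complex, went the other way in K223R. It measured 19.1, 19.4, 20.7 and 19.2 FPKM in untreated wild type and 19.9, 19.96, 20.6 and 20.4 with IL-4, with overlap. The K223R values were 18.5, 19.1, 17.04 and 20.1 untreated and 15.6, 16.2, 17.5 and 17.7 with IL-4, with overlap, and these IL-4 libraries lay below all 4 wild-type IL-4 libraries. With IL-4 it fell in K223R by 0.15 on the log2 scale (adjusted p = 0.0361). That call ended without untreated K223R replicates 1, 2 or 4 or K223R IL-4 replicates 1 or 2 (between 0.0574 and 0.12) and with median-ratio scaling (0.601), quantile normalization (0.201) or only the groups compared (0.106).

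Of the 6 degradation factors, 1 rose in wild type and 2 rose in K223R. Herpud1, an ER membrane protein that joins the degradation complex around the ligase Syvn1, carried the second ER stress element shown above. It measured 9.16, 8.41, 7.796 and 8.21 FPKM in untreated wild type and 11.3, 14.7, 12.7 and 11.3 with IL-4. In K223R cells the levels were 6.37, 7.36, 5.74 and 5.83 untreated and 17.6, 12.3, 19.6 and 21.7 with IL-4. IL-4 libraries lay above untreated ones in both genotypes, and all untreated K223R libraries lay below all untreated wild-type ones. The log2 difference was 0.52 ± 0.13 in wild type (adjusted p = 0.00888) and 1.34 ± 0.13 in K223R (adjusted p = 1.15e-06).

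Edem1, which trims mannose to mark proteins for disposal, measured 29.5, 27.4, 28.7 and 26.4 FPKM in untreated wild type and 28.9, 26.3, 25.2 and 26.7 with IL-4. Untreated K223R libraries had 27.3, 28.3, 29.2 and 30.4 and those with IL-4 had 32.8, 31.9, 33.5 and 33. It rose in K223R by 0.18 ± 0.050 (adjusted p = 0.00802) and had an adjusted p of 0.411 in wild type. Syvn1, the ubiquitin ligase Hrd1, and Sel1l, its adaptor, were called in neither genotype, and their libraries varied widely within groups, except for Sel1l in untreated K223R. Syvn1 ran from 5.56 to 13.01 FPKM in untreated wild type, 7.88 to 14.4 with IL-4, 6.99 to 13.3 in untreated K223R and 9.38 to 17.01 with IL-4. Sel1l ran from 7.49 to 20.6, 8.82 to 24.96, 8.30 to 10.0 and 11.9 to 27.7 FPKM in the same order. In K223R the Sel1l IL-4 libraries lay above the untreated ones without overlap, with a log2 difference of 0.74 ± 0.33 (adjusted p = 0.0818). Syvn1 was called higher in wild type without untreated wild-type replicate 1 (adjusted p = 0.0390), and Sel1l higher in K223R without untreated wild-type replicate 3 or wild-type IL-4 replicate 4 (between 0.04 and 0.049). Sel1l was also called higher in K223R when only the groups compared were fitted (0.0307). Derl1 and Derl2, membrane proteins through which substrates leave the ER, had means of 44.8 ± 1.398, 44.6 ± 2.37, 43.9 ± 0.853 and 43.4 ± 2.89 FPKM and 10.4 ± 0.827, 10.6 ± 0.596, 9.596 ± 0.471 and 9.84 ± 1.05 FPKM and were called in no comparison.

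**Figure D3:**
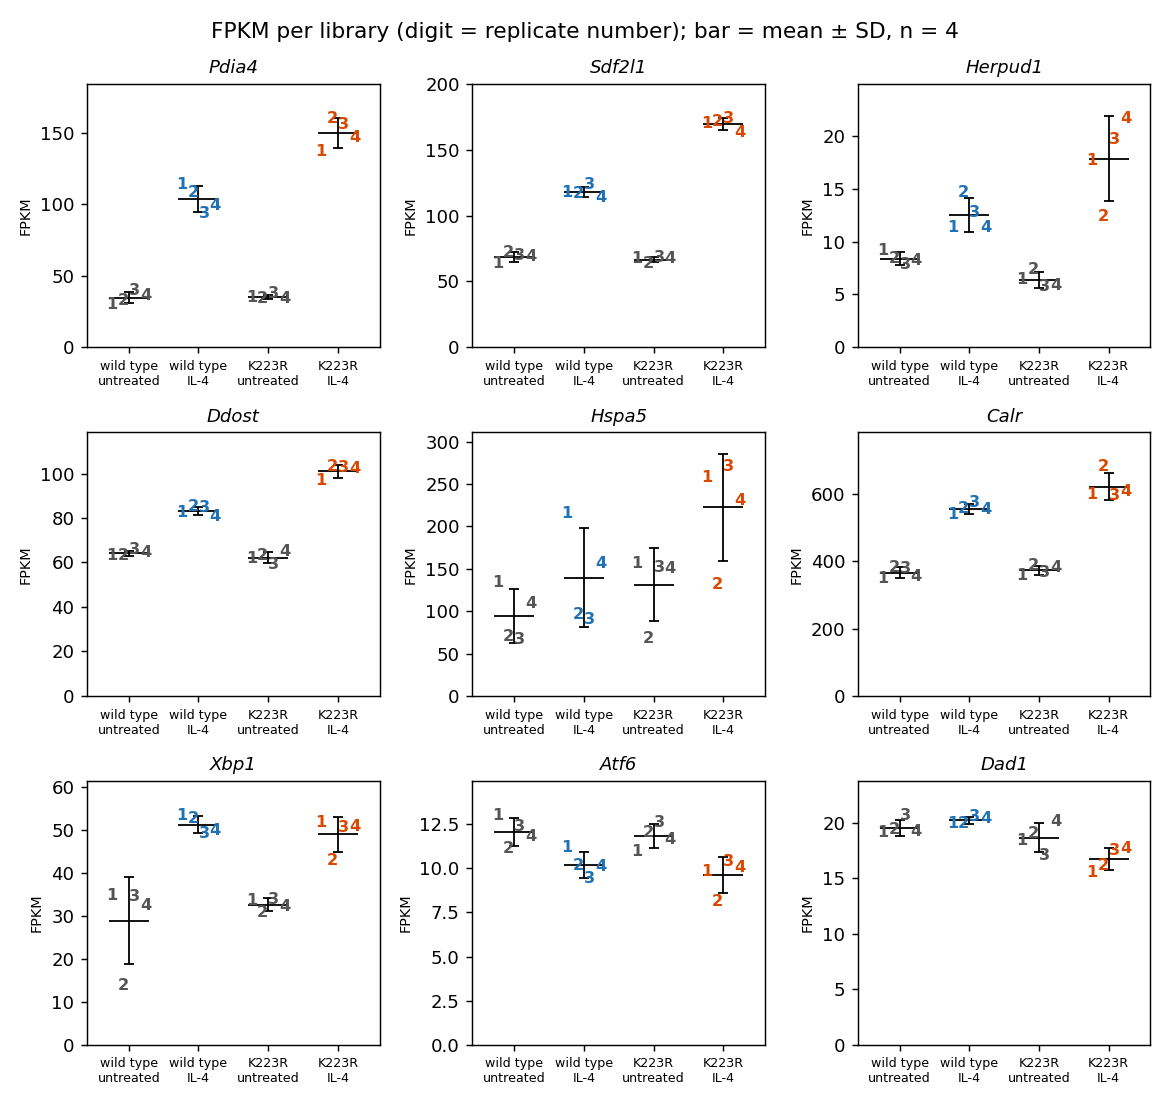
FPKM of 9 members in each of the 16 libraries (digits give the replicate number) with the group mean ± SD (black, n = 4); each y axis starts at 0. For Pdia4, Sdf2l1 and Ddost the K223R IL-4 libraries stand above all others, Hspa5 spreads within every group, Xbp1 has 1 low untreated wild-type library at 13.85 FPKM, and Atf6 falls with IL-4.

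At rest no member separated the genotypes at the threshold. In untreated cells 0 of the 44 members and 0% of all genes tested were called between K223R and wild type by limma. An unadjusted p under 0.05 was reached by 2 of the 44 members and by 737 of all genes (7.45%). The 2 were Herpud1 and Ostc, whose groups did not overlap. The share of all genes without overlap was not counted. Herpud1 had a mean of 8.39 ± 0.571 FPKM in wild type and 6.33 ± 0.746 in K223R (adjusted p = 0.564). Ostc had 22.5 ± 0.892 and 20.1 ± 1.43 (adjusted p = 0.581). Without K223R IL-4 replicate 2 the count was also 0 in each direction. The median log2 difference was -0.0045 over the members and -0.00074 over all genes.

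With IL-4, all 4 disulfide isomerases were higher in K223R than in wild type. So were 4 of the 9 Hsp70 and Hsp90 chaperones and their partners, and 1 of the 3 lectin genes. Between K223R and wild type under IL-4, 13 members were higher and 1 lower, against 5% of all genes higher and 10% lower, and the median was 0.095 over the members and -0.051 over all genes. Without K223R IL-4 replicate 2 the counts were 16 higher and 1 lower, with Dnajb9, Dnajb11, Stt3b and Sec61a1 added (adjusted p = 0.00201, 0.045, 0.0358 and 0.0373) and Calr lost (0.081). Stt3b was also called with median-ratio scaling and quantile normalization (0.00845 and 0.0286), and Rpn2 with median-ratio scaling (0.0445). Of the disulfide isomerases, Pdia4 was higher by 0.53 ± 0.081 (adjusted p = 0.000717), Pdia3 by 0.28 ± 0.049 (0.00176), Pdia6 by 0.24 ± 0.047 (0.00401) and P4hb by 0.18 ± 0.036 (0.00406). The P4hb call ended when only the groups compared were fitted (0.0599). These libraries also enter the K223R IL-4 comparison, so both draw on the same values. Of the Hsp70 and Hsp90 chaperones, Hsp90b1 was higher by 0.25 ± 0.053 (0.00556). Of their partners, Sdf2l1 was higher by 0.52 ± 0.044 (1.53e-05), Creld2 by 0.35 ± 0.069 (0.00381) and Dnajc3 by 0.27 ± 0.052 (0.00385). Ddost was higher by 0.28 ± 0.039 (0.000379) and Edem1 by 0.28 ± 0.050 (0.00184). Dad1 fell below wild type, at -0.26 ± 0.054 (0.00505).

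The remaining 3 calls of this comparison were lost when single libraries were left out. Herpud1 was higher by 0.46 ± 0.13 (adjusted p = 0.0307), and the groups overlapped through K223R IL-4 replicate 2. The call ended without wild-type IL-4 replicates 1, 3 or 4 or K223R IL-4 replicates 1, 3 or 4 (between 0.0549 and 0.0899) and when only the groups compared were fitted (0.118). Calr was higher by 0.16 ± 0.051 (0.0484), a call that ended when any single library other than K223R IL-4 replicate 3 was left out (between 0.0507 and 0.113), and with no filter (0.0509), no trend (0.0573) or only the groups compared (0.162). Spcs3 was higher by 0.16 ± 0.049 (0.0377), and its call ended without untreated wild-type replicate 4, wild-type IL-4 replicates 2, 3 or 4 or K223R IL-4 replicates 1, 3 or 4 (between 0.051 and 0.0989) or with only the groups compared (0.136). None of the 9 translocon genes and none of the 3 sensors was called with all libraries. Hspa5, with means of 139 ± 58.5 FPKM in wild type and 222 ± 62.7 in K223R, was not called (adjusted p = 0.176).

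The test of the difference between the responses, K223R minus wild type, called 4 members, all with the larger rise in K223R, against 0.778% of all genes higher and 1.36% lower. The signed log2 difference with IL-4 was higher in K223R for 34 of the 44 members, so a deeper fall counts as lower. The same count over all genes was not made. The median difference between responses was 0.098 over the members and -0.048 over all genes. Sdf2l1 differed by 0.56 ± 0.063 (adjusted p = 0.000549) and Ddost by 0.32 ± 0.055 (0.0086), and both calls held without any single library. Pdia4 differed by 0.51 ± 0.11 (0.031), and its call ended without untreated wild-type replicates 3 or 4, wild-type IL-4 replicates 3 or 4, untreated K223R replicates 1, 2 or 4 or K223R IL-4 replicates 3 or 4 (between 0.0525 and 0.0688) and with the replicate block within genotype (0.0846). Herpud1 differed most, by 0.82 ± 0.19 (0.0343): its K223R mean was 6.33 ± 0.746 FPKM untreated, against 8.39 ± 0.571 in wild type, and 17.8 ± 4.02 with IL-4, against 12.5 ± 1.59. Its call ended without untreated wild-type replicates 1, 2, 3 or 4, wild-type IL-4 replicates 1, 3 or 4, untreated K223R replicates 1, 3 or 4 or K223R IL-4 replicates 1, 3 or 4 (between 0.0505 and 0.0731) and with the same block (0.0873). Without K223R IL-4 replicate 2, 6 members were called higher and 0 lower. The added ones were Dnajc3 and Spcs3 (adjusted p = 0.0225 and 0.0487). Both were also called with median-ratio scaling (0.0113 and 0.022), and Dnajc3 without untreated K223R replicate 3 (0.0474). Pdia6 was called higher with quantile normalization (0.0343). The deposited tables of K223R have 1 column more, for the type of gene, than those of wild type, so a difference in processing and the genotype cannot be told apart.

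The split of calls between higher and lower depended on the scaling over all genes, while the members' share, close to its upper limit in each fit, had little room to rise. In wild type 41.0% of all IL-4 calls were higher, or 53.5% with median-ratio scaling, and of the members' calls 95.8% and 100% were higher. In K223R the share over all genes was 31.6%, 52.1% with median-ratio scaling and 44.7% with quantile normalization, and over the members 90.9%, 94.1% and 93.5%. Between genotypes under IL-4 it was 33.3%, 57.2% and 49.6% over all genes, and 92.9%, 93.8% and 93.3% over the members. For the difference between responses it was 36.3%, 59.0% and 49.3% over all genes, and 100% of the members' calls under each scaling. Some called sizes moved as well. Quantile normalization lowered the wild-type log2 difference with IL-4 to 0.37 for Calr and 0.28 for Pdia3 and that in K223R to 0.20 for P4hb. Median-ratio scaling gave K223R values of -0.17 for Atf6, -0.19 for Sec62, 0.29 for Edem1, 0.28 for Sec61a1, 0.25 for Stt3a and 0.30 for Canx.

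Read against the promoter search, the 10 members with either ER stress element comprised 8 that rose in wild type and the same count in K223R, with a median log2 difference of 0.52 and 0.75. The 2 of the 10 not called in either were Hspa5 and Syvn1. Of the 26 members with a RefSeq promoter and no such element, 12 rose in wild type, and 17 rose and 2 fell in K223R, with a median of 0.19 and 0.31. Pdia4 and Sdf2l1 were among these 26. Between genotypes under IL-4, 6 of the 10 and 6 of the 26 were higher. These counts describe the letters in the window, and no test was made of them.

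Of 116 other ER genes, listed with earlier results of these data known, 107 were tested. In wild type 15 rose and 9 fell with IL-4, against 10.7% of all genes higher and 15.3% lower, and in K223R 24 rose and 21 fell, against 13.5% and 29.1%. Of 24 other folding factors 7 rose in wild type and 10 in K223R. Of 20 other degradation genes 0 rose and 3 fell in wild type and 3 rose and 9 fell in K223R. Bcap31, an ER membrane protein that escorts membrane cargo, had means of 157 ± 2.27, 219 ± 14.01, 156 ± 2.76 and 275 ± 32.2 FPKM in untreated wild type, wild type with IL-4, untreated K223R and K223R with IL-4, and rose by 0.48 ± 0.067 and 0.80 ± 0.067. Tusc3, an oligosaccharyltransferase subunit, rose by 0.51 ± 0.080 and 0.57 ± 0.080. Prdx4, a peroxidase that feeds disulfide formation, rose by 0.30 and 0.62, and Sil1, a nucleotide exchange factor of BiP, by 0.37 and 0.56. Wfs1, an ER membrane protein, and Creb3l2, a membrane-bound transcription factor, rose by 0.42 and 0.42 in wild type, and Fkbp2, a prolyl isomerase, by 0.55 in K223R. Srp72, of the signal recognition particle, rose in wild type by 0.60, a call that ended without untreated wild-type replicate 4 or wild-type IL-4 replicates 3 or 4 (between 0.0518 and 0.0712).

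Among the genes that fell, Alg1, a mannosyltransferase of N-glycan assembly, fell by 0.51 in wild type and by 0.55 in K223R. Rnf5, a ubiquitin ligase, fell by 0.38 in wild type, and Aup1, a degradation factor, and Mogs, the first glucosidase of the ER, fell by 0.36 and 0.36 in K223R. Mcfd2, of a cargo receptor, fell by 0.21 and 0.46. Mbtps2, the protease that makes the second cut of ATF6, fell by 0.21 and 0.43. Its wild-type call ended without untreated wild-type replicates 1, 3 or 4 or wild-type IL-4 replicates 2, 3 or 4 (between 0.0635 and 0.118), with median-ratio scaling (0.0653), quantile normalization (0.0594) or only the groups compared (0.0575). Qsox1, a sulfhydryl oxidase, fell in wild type by 0.23, a call that ended without untreated wild-type replicates 2 or 3 or wild-type IL-4 replicates 3 or 4 (between 0.0519 and 0.0777) or with median-ratio scaling (0.078) or quantile normalization (0.176).

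Between genotypes, 0 of the 107 were called in untreated cells, with 7 at an unadjusted p under 0.05. Under IL-4, 12 were higher and 8 lower in K223R, against 5% and 10% of all genes. Atf4, the transcription factor of the PERK arm, had means of 71.01 ± 3.502, 69.8 ± 3.96, 69.6 ± 0.757 and 55.7 ± 0.4202 FPKM in the 4 groups in the order above and was lower in K223R with IL-4 by a log2 difference of -0.32 ± 0.045 (adjusted p = 0.000437). Ddit3, known as CHOP and a target of that arm, had means of 18.3 ± 1.33, 20.7 ± 1.73, 18.6 ± 1.07 and 24.9 ± 2.63 FPKM and was higher in K223R with IL-4 (0.26 ± 0.077, 0.0364), a call that ended without wild-type IL-4 replicates 1, 2 or 3 or K223R IL-4 replicates 1, 3 or 4 (between 0.0508 and 0.104) or when only the groups compared were fitted (0.114). Prdx4, Bcap31, Wfs1 and Sil1 were higher by 0.35, 0.32, 0.23 and 0.22; the Bcap31 and Sil1 calls ended when only the groups compared were fitted (0.062 and 0.0688). The Mogs call given next ended in the same fit (0.0872) and with median-ratio scaling (0.064). Alg8, Mogs and Mcfd2 were lower, at -0.37, -0.31 and -0.24, and Alg3 at -0.34, a call that ended without untreated wild-type replicates 2 or 4, wild-type IL-4 replicates 1, 2, 3 or 4, untreated K223R replicates 3 or 4 or K223R IL-4 replicates 1, 3 or 4 (between 0.0569 and 0.126), with no filter (0.0502), median-ratio scaling (0.114), quantile normalization (0.108) or only the groups compared (0.0501). The difference between responses was called for Atf4 (-0.29 ± 0.064, 0.029) and Mcfd2 (-0.25 ± 0.062, 0.0477), both more negative in K223R. The Atf4 call ended without untreated wild-type replicate 1, wild-type IL-4 replicates 1, 3 or 4, untreated K223R replicates 2, 3 or 4 or K223R IL-4 replicates 1, 3 or 4 (between 0.0518 and 0.0653) and with median-ratio scaling (0.0947). The Mcfd2 call ended with median-ratio scaling (0.162), in limma without the trend (0.0644), with the replicate block within genotype (0.0882) and without untreated wild-type replicates 1, 3 or 4, wild-type IL-4 replicates 1, 2, 3 or 4, untreated K223R replicates 1, 2, 3 or 4 or K223R IL-4 replicates 1 or 3 (between 0.0514 and 0.0918).

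**Figure D4:**
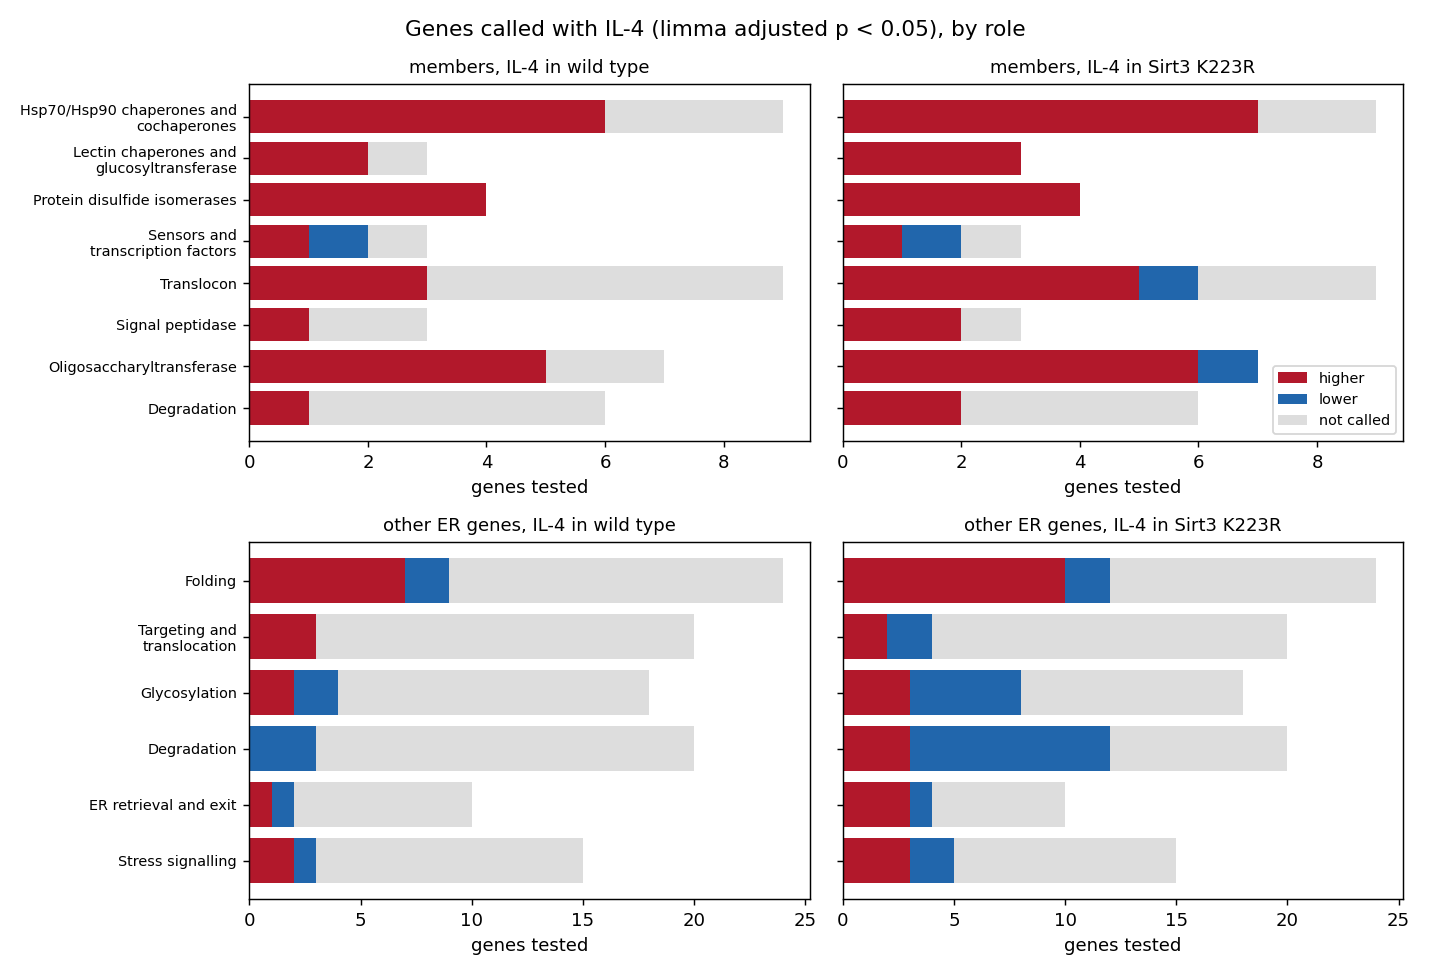
Number of genes called higher (red), lower (blue) or not called (grey) with IL-4 by limma at an adjusted p under 0.05, by role (x axis, genes tested), for the 44 members (top) and 107 other ER genes (bottom) in wild type (left) and Sirt3 K223R (right). All 4 disulfide isomerases are red in both genotypes, and the other degradation genes hold 9 falls in K223R.

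Exons of 16 of the 44 members overlap those of another annotated gene, in 8 cases a protein-coding gene: Manf (with Dcaf1 and Rbm15b), Pdia3, Pdia6, Spcs1, Spcs3, Rpn2, Syvn1 and Derl2. The libraries were stranded per the labels' protocols, but the strand setting of the counting is not given, so the values of these genes are uncertain to the extent that reads were shared.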

How the data were processed

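RNA sequencing of macrophages gave 16 libraries in 4 groups, with group and replicate number from the labels. The authors deposited 1 value per gene, taken here as FPKM; the file headers name no unit, and this was inferred from values that are not whole and from their sums. Per the labels' protocols, RNA was selected by poly(A) or by removal of ribosomal RNA and made into stranded dUTP libraries. The aligner, the counter, its use of strand and the build are not stated in the labels or headers. Coordinates in the files equal GENCODE M21 (GRCm38) for all 9510 gene identifiers with the same version, 40 of the 44 members among them. The sequencing depth is unknown, so no counting interval is given. Of the pairs of libraries, 0 had equal values for the greater part of their genes.

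Tests used log2 of the FPKM plus a pseudocount of 1, on which the changes of low genes come out too small. Genes with at least 1 FPKM in at least 4 libraries were kept (9891). A model of 4 group means over all 16 libraries was fitted with limma 3.58.1 (R 4.3.3; moderated by empirical Bayes, trend of variance with mean on), and the script was tested on simulated data. P-values were adjusted by Benjamini-Hochberg over all genes tested, and adjusted p under 0.05 was a call. Python 3.11.15 with pandas 2.3.3 and matplotlib 3.10.9 did the rest. The alternatives were a pseudocount of 0.1, no filter, median-ratio scaling, quantile normalization, only the groups compared, no trend, each library left out, and the replicate number as a block.

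The members, their roles and the other lists were chosen with earlier results of these data known. Values in every library are given for Hspa5, Xbp1, Atf6, Ern1, Herpud1 and, per comparison, for up to 5 called members with the largest difference in each direction; other ER genes are named by the same rule of 5. Deviations from group means correlated between same-numbered untreated and IL-4 libraries at 0.286, 0.122, 0.100 and 0.116 in wild type. Each was above the correlations with any other number, and these libraries were taken as paired. In K223R the correlations were 0.052, 0.083, 0.127 and -0.045. They were the highest for replicates 1, 2 and 3, though barely for 1 (0.049 with another number), and not for 4 (0.155 with another number). Whether the K223R libraries are paired is therefore not settled. One marker of the macrophage list is not reported here. The search for protein sequences was not made, and RefSeq promoters are those of GRCm38.p6.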

Additional observations from a re-analysis of the deposited data

Results flagged for a closer look

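In 15 of 176 groups of 4 libraries, 1 per member and group, a single library lay apart from the other 3 by a gap above Dixon's 95% critical share of the group's range, where chance flags about 1 in 20 groups. In K223R with IL-4 these were Calr in replicate 2, highest at 679.7 FPKM against 596 to 606, Xbp1 in replicate 2, lowest at 42.8 against 50.6 to 51.7, and Ddost in replicate 1, lowest at 96.6 against 102 to 103. In untreated K223R they were Hspa5 in replicate 2, lowest at 67.2 against 151 to 157, Dnajb11 in replicate 1, lowest at 31.9 against 34.3 to 34.4, and, both highest in replicate 3, Pdia4 at 37.4 against 34.1 to 34.5 and Dnajc3 at 25.2 against 22.3 to 22.7. In untreated wild type they were Xbp1 in replicate 2, lowest at 13.9 against 32.5 to 34.8, Hsp90b1 in replicate 1, lowest at 156.7 against 172 to 173, and Sec62 in replicate 3, lowest at 48.8 against 52.2 to 52.4. The same group held Spcs3 in replicate 1, highest at 35.0 against 31.9 to 32.4, and Dad1 in replicate 3, highest at 20.7 against 19.1 to 19.4. In wild type with IL-4 they were, all highest, Ssr2 in replicate 2 at 32.7 FPKM against 18.8 to 20.8, and in replicate 4 Spcs1 at 51.6 against 41.1 to 42.2 and Sel1l at 24.96 against 8.82 to 11.4.

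The IL-4 response differed between the genotypes by limma's test of the difference for 4 members, each larger in K223R. The difference of log2 responses was 0.82 for Herpud1, 0.56 for Sdf2l1, 0.51 for Pdia4 and 0.32 for Ddost.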

How the results depend on the processing

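Of 75 calls among the members over the 5 comparisons, 63 were kept in every fit that left out 1 library and 12 were lost in at least 1 such fit. Over these fits the count higher with IL-4 ranged from 21 to 28 in wild type and 27 to 33 in K223R, that between genotypes under IL-4 from 10 to 16, and that for the difference of responses from 2 to 6; the count lower with IL-4 in wild type ranged from 0 to 1. With median-ratio scaling 0 members were lower in wild type and 7 had a larger response in K223R; the cause was not tested. Of 143 gene results compared, 143 kept direction and side of the threshold with a pseudocount of 0.1, 141 with no filter, 140 with no trend, 131 with quantile normalization and 122 with median-ratio scaling.

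With the replicate block within genotype, 2 members had a larger response in K223R; Herpud1 and Pdia4 (adjusted p = 0.0873 and 0.0846) and, of the other ER genes, Mcfd2 (0.0882) were no longer called, and Hspa5 was called in K223R (1.42e-05). With the block across genotypes, under IL-4 Hspa5 was called higher in K223R (0.0342) and Herpud1 was not (0.059). In wild type, where the numbers were taken to pair the libraries, the block changed the calls of Hspa5 and Ostc and of no other gene compared. In K223R the pairing is not settled, and across genotypes libraries share only a number.

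Values that reversed did so only when 1 library was left out, and none was called with its sign reversed. Their ranges over those fits were -0.012 to 0.13 for Ern1 in wild type and -0.054 to 0.28 for Dnajb9 in K223R (-0.0088 in another fit). The Dnajb9 value of 0.28, without K223R IL-4 replicate 2, was called by limma (adjusted p = 0.0113). Between untreated genotypes they were -0.064 to 0.0051 for Atf6 (0.0044 in another fit) and -0.054 to 0.37 for Xbp1. In the difference of responses they were -0.091 to 0.016 for Atf6, -0.019 to 0.12 for Ern1 and -0.036 to 0.49 for Hspa5. Of the 220 pairs of member and comparison, 109 were called in no setting and, after their values were seen, left out of this comparison; 38 of them changed sign in at least 1 setting. Values near 0 therefore carry no direction. The spread between 4 libraries is the only measure of precision.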
